A study of Homo sapiens with 16 samples.

Results

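The SIX-family, EYA and DLX genes described here are 9 developmental regulators: the homeobox genes SIX3 and SIX4, the coactivator genes EYA1, EYA2, EYA3 and EYA4, and the distal-less homeobox genes DLX3, DLX5 and DLX6. They were taken by name from a table of 23284 genes, in which each of the 9 was found. They were measured while WA01 cells, an established human embryonic stem cell line, were driven toward neural crest with 3 µM of the GSK3 inhibitor CHIR99021. The tested lines were KO and Het, both edited by CRISPR/Cas9 with a single guide RNA aimed at the start of translation of FOXB1, a forkhead transcription factor gene. Their controls were 2 isogenic wild-type lines. Each line was sampled at day 5, labelled neural crest, and at day 3, labelled pre-neural crest, with 2 replicates per line and day, 16 samples in all. All groups, wild type included, received CHIR99021 throughout and the ROCK inhibitor Y-27632 (10 µM) at the beginning, after plating at 20000 cells per cm2. The labels do not say how many clones stand behind each edited genotype, nor whether replicates were separate cultures, so p-values may measure technical spread alone.

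In vertebrate embryos, the border between neural plate and epidermis gives rise to the neural crest and, just outside it, to the preplacodal ectoderm that forms the lens, ear, nose and cranial sensory ganglia. SIX-family proteins bind DNA through a homeodomain and recruit EYA proteins, which act as transcriptional coactivators and also carry a protein phosphatase domain, while DACH proteins join the network as corepressors. SIX4, EYA1 and EYA2 are classical marks of preplacodal ectoderm, and DLX genes mark the non-neural side of the border and later the crest of the pharyngeal arches.

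The authors' deposited table gave a level in FPKM (sequenced fragments per kilobase of transcript, scaled to the library's mapped fragments) for each of 6 groups, KO, Het and wild type at day 5 and at day 3, and no value per library. The wild-type group is 1 group per day, and which of the 4 wild-type libraries of that day entered it is not stated. The error given with a level or a change is therefore the standard error (SE) that the table's fold change and test score imply. The call rule was a q-value under 0.05, as listed by Cuffdiff in the authors' deposited table. Between 13099 and 13562 genes reached 1 FPKM in a group, and read depth is unknown. FOXB1 itself was at 1.86 FPKM in KO, 4.47 in Het and 5.51 in wild type at day 5, and at 15.5 in KO, 7.73 in Het and 18.3 in wild type at day 3. A guide at the start of translation can disable the protein without lowering the transcript, so these levels do not check the genotype labels. In bulk RNA, fewer cells of a type and less RNA per cell cannot be told apart.

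The 250 bases upstream of the annotated start are shown for 3 members that carry the contrast between steady and line-dependent levels, from RefSeq (GRCh38.p14). A RefSeq promoter entry matched 4 of the 9 members, EYA3, EYA4, SIX4 and DLX6. EYA4 and SIX4 were the members called higher in both edited lines at day 3, and EYA3 is the member whose level moved least. Capitals mark the GC box GGGCGG on either strand (CCGCCC on the other) and the CCAAT box.
EYA4: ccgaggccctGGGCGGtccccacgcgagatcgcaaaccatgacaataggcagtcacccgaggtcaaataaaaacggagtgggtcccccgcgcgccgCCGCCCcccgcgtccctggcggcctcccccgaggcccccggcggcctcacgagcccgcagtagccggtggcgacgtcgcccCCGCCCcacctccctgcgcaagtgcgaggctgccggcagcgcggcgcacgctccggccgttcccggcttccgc
SIX4: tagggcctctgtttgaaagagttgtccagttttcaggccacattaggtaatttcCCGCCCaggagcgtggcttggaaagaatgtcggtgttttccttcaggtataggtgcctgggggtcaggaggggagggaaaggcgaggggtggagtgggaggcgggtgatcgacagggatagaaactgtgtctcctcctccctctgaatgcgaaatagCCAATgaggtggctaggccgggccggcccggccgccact
EYA3: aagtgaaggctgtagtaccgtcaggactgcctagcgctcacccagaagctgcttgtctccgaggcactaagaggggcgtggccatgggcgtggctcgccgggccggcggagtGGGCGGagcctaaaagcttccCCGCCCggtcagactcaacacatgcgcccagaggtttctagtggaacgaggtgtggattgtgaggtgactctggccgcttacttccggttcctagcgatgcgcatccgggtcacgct
The EYA4 window lies at chr6:133241107-133241356 on the plus strand, the SIX4 window at chr14:60724352-60724601 on the minus strand and the EYA3 window at chr1:28088611-28088860 on the minus strand. GC content was 75.2% for EYA4, 58.0% for SIX4 and 62.4% for EYA3. EYA4 held 3 GC boxes, SIX4 held 1 with 1 CCAAT box, and EYA3 held 2, where 42.6% of 35116 promoter windows of this length held a GC box and 32.0% a CCAAT box on either strand. The letters GCCNNNGGC, a pattern bound by AP-2 factors such as TFAP2A, occurred 3 times in the EYA4 window, where 1 of them overlaps a GC box, 1 time in the EYA3 window and 0 times in the SIX4 window. It was held by 19.8% of all windows. None of the 3 windows held TAATTA (homeodomain, 4.35% of windows), TAAACA (forkhead, 11.0%), CTTTGA (TCF/LEF, 11.2%) or TGATAC (SIX-family, 3.80%) on either strand, which says only that these letters are not in these windows.

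The 9 members fell into 3 kinds by level. EYA3 and SIX4 were above 1 FPKM in all 6 groups and EYA2 was too, EYA1, EYA4 and DLX5 crossed 1 FPKM in some groups, and SIX3, DLX3 and DLX6 never reached it. Between 4 and 6 of the 9 members reached 1 FPKM in any group. The plot of levels by group shows that EYA4, EYA1 and EYA2 peaked in KO cells at day 5, and SIX4, DLX5 and DLX6 in KO cells at day 3.

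**Figure D1:**
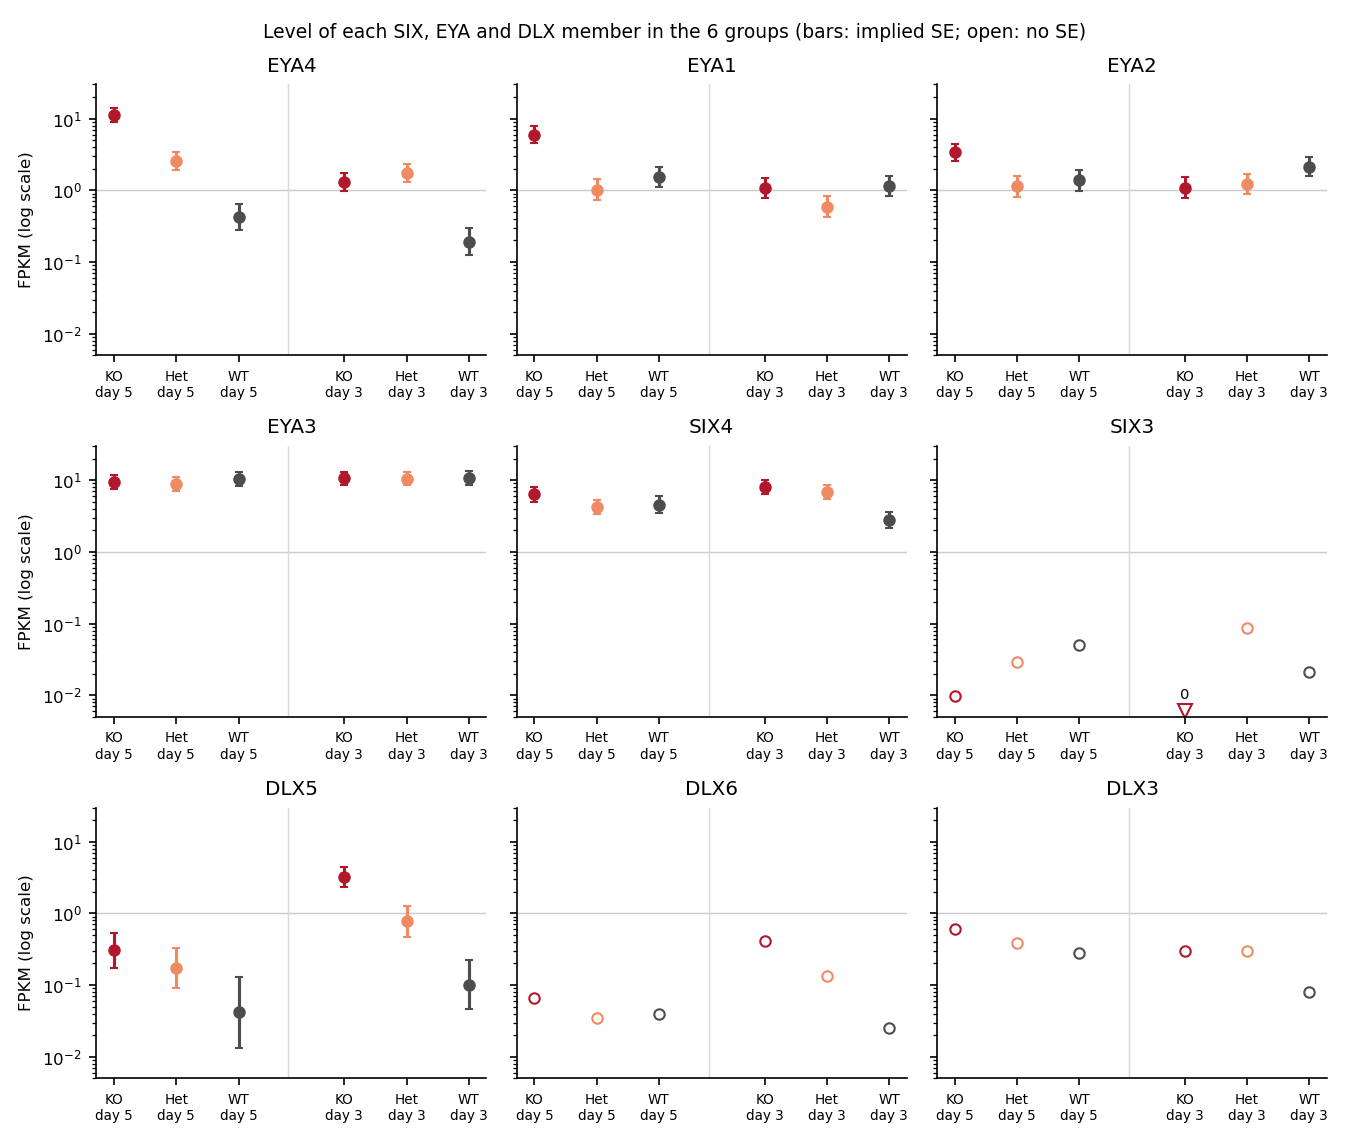
Level of each member in FPKM (log axis) in KO, Het and wild-type (WT) cells at day 5 and day 3, with 1 point per group; bars are the SE implied by the deposited scores and open points have none. EYA4 reaches 11.2 FPKM in KO cells at day 5 and EYA3 stays between 8.87 and 10.7 FPKM.

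EYA4, a coactivator gene mutated in inherited hearing loss, had the widest range among the EYA genes (hg19 chr6:133562495-133853258, the gene's whole span). It was at 11.2 ± 2.53 FPKM in KO, 2.58 ± 0.726 in Het and 0.425 ± 0.178 in wild-type cells at day 5 (implied SE). At day 3 it was at 1.30 ± 0.371 FPKM in KO, 1.74 ± 0.511 in Het and 0.193 ± 0.0823 in wild-type cells. Both edited lines thus stood above wild type on both days, and KO at day 5 stood above every other group. Against wild type, EYA4 rose in KO by 4.73 on the log2 scale at day 5 (SE 0.69, 26.5-fold) and by 2.75 at day 3 (SE 0.74, 6.75-fold), with q = 0.00126 in both in the authors' deposited table, the smallest value it holds. It also rose in Het, by 2.60 at day 5 (SE 0.73) and by 3.17 at day 3 (SE 0.75), again with q = 0.00126 in the authors' deposited table. KO and Het differed at day 5, where EYA4 was 4.37-fold higher in KO (log2 2.13, SE 0.52, q = 0.00126 in the authors' deposited table), and the difference at day 3, -0.41 in KO against Het (SE 0.59), gave q = 0.665 in the same deposited table. In the order of levels, the neighbours that differed by q in the authors' deposited table were KO and Het at day 5, and KO at day 3 and wild type at day 5 (log2 1.62, SE 0.73, q = 0.0182).

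EYA1, the gene mutated in branchio-oto-renal syndrome and needed for ear and kidney development, lies on chromosome 8. It was at 5.96 ± 1.59 FPKM in KO, 1.03 ± 0.357 in Het and 1.55 ± 0.503 in wild-type cells at day 5. At day 3 it was at 1.07 ± 0.345 FPKM in KO, 0.593 ± 0.205 in Het and 1.16 ± 0.363 in wild-type cells. A single group, KO at day 5, stood apart. EYA1 rose in KO at day 5 by 1.94 against wild type (SE 0.61, 3.84-fold) and by 2.54 against Het (SE 0.63, 5.80-fold), both with q = 0.00126 in the authors' deposited table. The other neighbours in its order of levels had q between 0.369 and 0.976 in the authors' deposited table.

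EYA2, a coactivator gene of cranial placodes and muscle (hg19 chr20:45523263-45817492), was at 3.38 ± 0.962 FPKM in KO, 1.13 ± 0.376 in Het and 1.39 ± 0.469 in wild-type cells at day 5. At day 3 it was at 1.09 ± 0.363 FPKM in KO, 1.23 ± 0.405 in Het and 2.14 ± 0.662 in wild-type cells. KO was thus the highest group at day 5 and the lowest at day 3, where wild type was highest. At day 5 EYA2 rose in KO by 1.28 against wild type (SE 0.64, 2.42-fold, q = 0.0410) and by 1.57 against Het (SE 0.63, 2.98-fold, q = 0.0312), by the authors' deposited table. At day 3 its log2 change in KO was -0.98 (SE 0.66, q = 0.103 in the authors' deposited table), which did not pass. KO cells at day 5 differed in EYA2 from 4 of the 5 other groups; against wild type at day 3 the log2 difference was 0.66 (SE 0.61) with q = 0.342 in the authors' deposited table. EYA4 and EYA1 in KO at day 5 differed from all 5 other groups at q = 0.00126 in that deposited table.

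EYA3, the broadly expressed member of the family (hg19 chr1:28296855-28415148), was at 9.49 ± 2.08 FPKM in KO, 8.87 ± 2.04 in Het and 10.4 ± 2.34 in wild-type cells at day 5. At day 3 it was at 10.6 ± 2.30 FPKM in KO, 10.5 ± 2.25 in Het and 10.7 ± 2.31 in wild-type cells. Its highest and lowest groups differed 1.21-fold, less than the SE of a single group. It was called in none of the 9 comparisons, and its q in KO against wild type at day 5 was 0.886 in the authors' deposited table.

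Summed over the 4 EYA genes, the level was 30.1 ± 3.76 FPKM in KO, 13.6 ± 2.23 in Het and 13.8 ± 2.44 in wild-type cells at day 5 (implied SE of the sum, members taken as independent). At day 3 the sum was 14.0 ± 2.38 FPKM in KO, 14.1 ± 2.35 in Het and 14.2 ± 2.43 in wild-type cells. The total therefore lay within a narrow band in 5 groups and was 2.19-fold higher in KO than in wild type at day 5 (log2 1.13, SE 0.31; a sum was given no test). EYA3 made up 31.5% of the EYA total in KO at day 5, against 65.2% in Het and 75.5% in wild type. The other EYA genes together came to 20.6 ± 3.14 FPKM in KO at day 5, 4.74 ± 0.892 in Het and 3.37 ± 0.711 in wild type, a 6.11-fold ratio of KO to wild type (log2 2.61, SE 0.38).

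At day 3 the EYA total hardly differed between lines while its makeup did. EYA4 was 9.28% of the total in KO, 12.3% in Het and 1.36% in wild type. EYA2 was 7.73% in KO, 8.74% in Het and 15.1% in wild type. EYA1 was 7.59% in KO, 4.21% in Het and 8.16% in wild type. The sum of EYA1, EYA2 and EYA4 at day 3 was 3.46 FPKM in KO, 3.56 in Het and 3.49 in wild type. Of these shifts, that of EYA4 passed the test at day 3, as given above, and those of EYA1 and EYA2 did not.

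**Figure D2:**
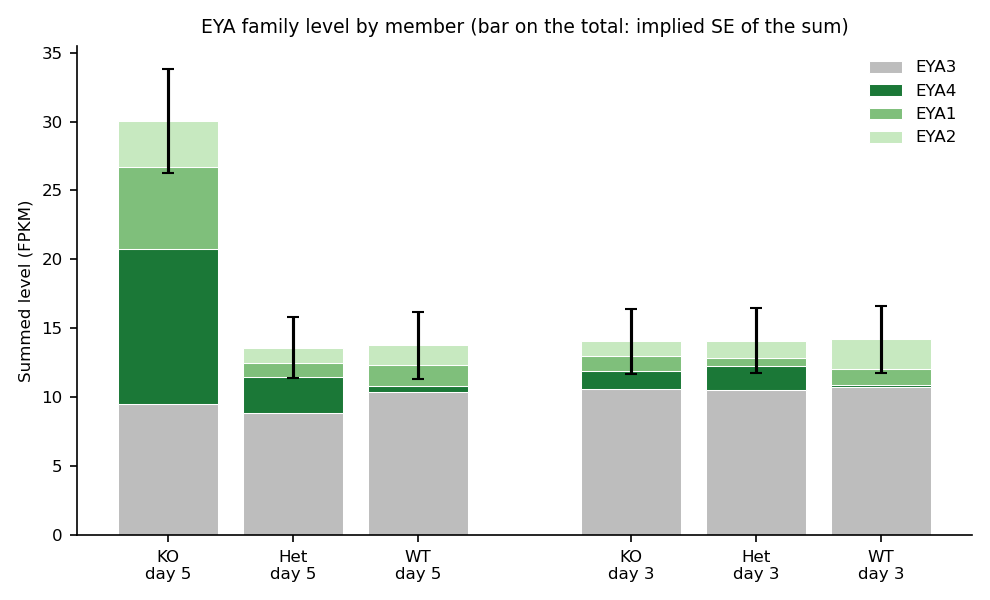
Summed FPKM of the 4 EYA genes, stacked by member, in KO, Het and wild-type (WT) cells at day 5 and day 3; the bar on each total is its implied SE. The total is 30.1 FPKM in KO cells at day 5 and between 13.6 and 14.2 FPKM in the 5 other groups, and the grey EYA3 block is nearly level throughout.

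SIX4, a homeobox gene active in placodes, muscle and sensory ganglia (hg19 chr14:61176256-61190852), had a different time pattern. It was at 6.32 ± 1.44 FPKM in KO, 4.23 ± 1.00 in Het and 4.57 ± 1.21 in wild-type cells at day 5. At day 3 it was at 8.10 ± 1.78 FPKM in KO, 6.91 ± 1.58 in Het and 2.78 ± 0.701 in wild-type cells. Wild type at day 3 was the lowest group, and both edited lines were above it that day. SIX4 rose at day 3 in KO by 1.54 (SE 0.48, 2.91-fold) and in Het by 1.31 (SE 0.49, 2.48-fold), both with q = 0.00126 in the authors' deposited table. At day 5 the log2 difference from wild type was 0.47 in KO (SE 0.50, q = 0.448) and -0.11 in Het (SE 0.51, q = 0.920), neither past the threshold in the authors' deposited table. No neighbours in its order of levels differed at q below 0.05 in that deposited table.

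SIX3, which acts in the anterior neural plate, eye and lens (hg19 chr2:45169037-45173216), was near the floor. It was at 0.0098 FPKM in KO, 0.0292 in Het and 0.0506 in wild type at day 5, and at day 3 it was listed at 0 in KO, at 0.0872 in Het and at 0.0213 in wild type. The table gives no test for it in any comparison. Its chromosomal neighbour SIX2, 59.1 kb away, stayed at or below 0.345 FPKM, and the eye-field gene SIX6 reached at most 0.433 FPKM (Het at day 5). The 9 genes are described here as gene families and not as marks of placode cells.

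DLX5 (hg19 chr7:96649702-96654143), a homeobox gene of the neural plate border, pharyngeal arches and bone, was at 0.304 ± 0.171 FPKM in KO, 0.171 ± 0.109 in Het and 0.0417 ± 0.0472 in wild type at day 5. At day 3 it was at 3.20 ± 1.02 FPKM in KO, 0.771 ± 0.392 in Het and 0.102 ± 0.0790 in wild type. KO at day 3 was the sole group above 1 FPKM, and on both days the order ran KO, Het, wild type. DLX5 rose in KO against Het at day 3 by 2.05 (SE 0.86, 4.15-fold, q = 0.0249 in the authors' deposited table). Against wild type at day 3 the log2 difference was 4.98 in KO (SE 1.21) and 2.92 in Het (SE 1.34), with q = 0.123 in KO and 0.136 in Het in the authors' deposited table, so that neither was called. Calls were remade with a normal test on the deposited scores, with the SE of all genes scaled by a single factor per comparison. Both then passed, at an adjusted p of 4.6e-09 in KO and 0.0118 in Het. That factor does not suit DLX5 in KO, whose unadjusted p of 0.0206 in the authors' deposited table, at a score of 4.11, lay above the normal one. The remade KO value therefore carries little weight. The KO against Het call was lost when p-values were adjusted within that comparison alone (adjusted p of 0.108) or changes were centred on genes of like GC content (adjusted p of 0.0517). No day 5 genotype comparison of DLX5 was tested in the table.

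DLX6, the partner of DLX5 in a convergent pair, shared its listed span (hg19 chr7:96597827-96643377) with the antisense transcript DLX6-AS1. A gap of 6.3 kb lies between the end of that shared span and DLX5. Whether strand was used in counting is not stated, so the level of DLX6 is uncertain. It was at 0.0650 FPKM in KO, 0.0351 in Het and 0.0397 in wild type at day 5, and at 0.408 in KO, 0.133 in Het and 0.0254 in wild type at day 3. At day 3 its order was that of DLX5, but it was never tested. DLX6-AS1 was listed at 0.683 FPKM in KO, 0.782 in Het and 0.553 in wild type at day 3 and was not called in any of the 9 comparisons.

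DLX3 (hg19 chr17:48067369-48072588), a gene of non-neural ectoderm and its appendages, was at 0.615 FPKM in KO, 0.389 in Het and 0.277 in wild type at day 5, and at 0.301 in KO, 0.297 in Het and 0.0800 in wild type at day 3. KO at day 5 was highest and wild type at day 3 lowest. The log2 difference of KO from wild type at day 5 was 1.15 (SE 0.91, q = 0.232 in the authors' deposited table), and DLX3 was not tested at day 3. Its neighbour DLX4, 15045 bases away, was at 0.432 FPKM in KO, 0.144 in Het and 0.0976 in wild type at day 5.

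In KO against wild type at day 5, 6 members were tested, 3 rose (EYA4, EYA1 and EYA2) and none fell, where 13.3% of all tested genes were called, 7.58% as rises and 5.68% as falls. In KO against wild type at day 3, 6 were tested and 2 rose (EYA4 and SIX4), against 9.51% of genes called, 4.34% as rises and 5.17% as falls. In Het against wild type at day 5, 5 were tested and EYA4 alone rose, against 2.16% of genes called, 1.14% as rises and 1.02% as falls. In Het against wild type at day 3, 6 were tested and 2 rose (EYA4 and SIX4), against 6.31% of genes called, 1.68% as rises and 4.63% as falls. The KO and Het comparisons share their wild-type groups, so these counts are not independent.

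In KO against Het, 6 members were tested on each day. At day 5, 3 rose (EYA1, EYA4 and EYA2), against 8.06% of genes called, 5.55% as rises and 2.51% as falls. At day 3, DLX5 alone rose, against 2.84% of genes called, 2.3% as rises and 0.54% as falls. The median log2(FPKM + 0.1) difference from wild type over all 9 members, tested or not, was 0.92 in KO at day 5, 1.16 in KO at day 3, -0.11 in Het at day 5 and 0.89 in Het at day 3. It fell on DLX3 in KO on both days and on DLX6 in Het at day 3, genes below 1 FPKM in every group. The median of tested genes alone, an unlike set, was 0.03 in KO at day 5, -0.02 in KO at day 3, -0.03 in Het at day 5 and -0.04 in Het at day 3. With calls remade from the scaled scores, centring on genes of like GC content gave 658 rises and 366 falls over all genes in KO at day 3, against 697 and 839 without centring (637 and 759 as deposited). In Het at day 3 it gave 252 and 268, against 249 and 628 without centring (245 and 677 as deposited). In Het at day 5 the remade calls were 122 rises and 84 falls without centring and 135 and 66 when centred on the gene's chromosome, against 166 and 148 as deposited. The EYA4 and SIX4 calls against wild type held under these centrings.

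**Figure D3:**
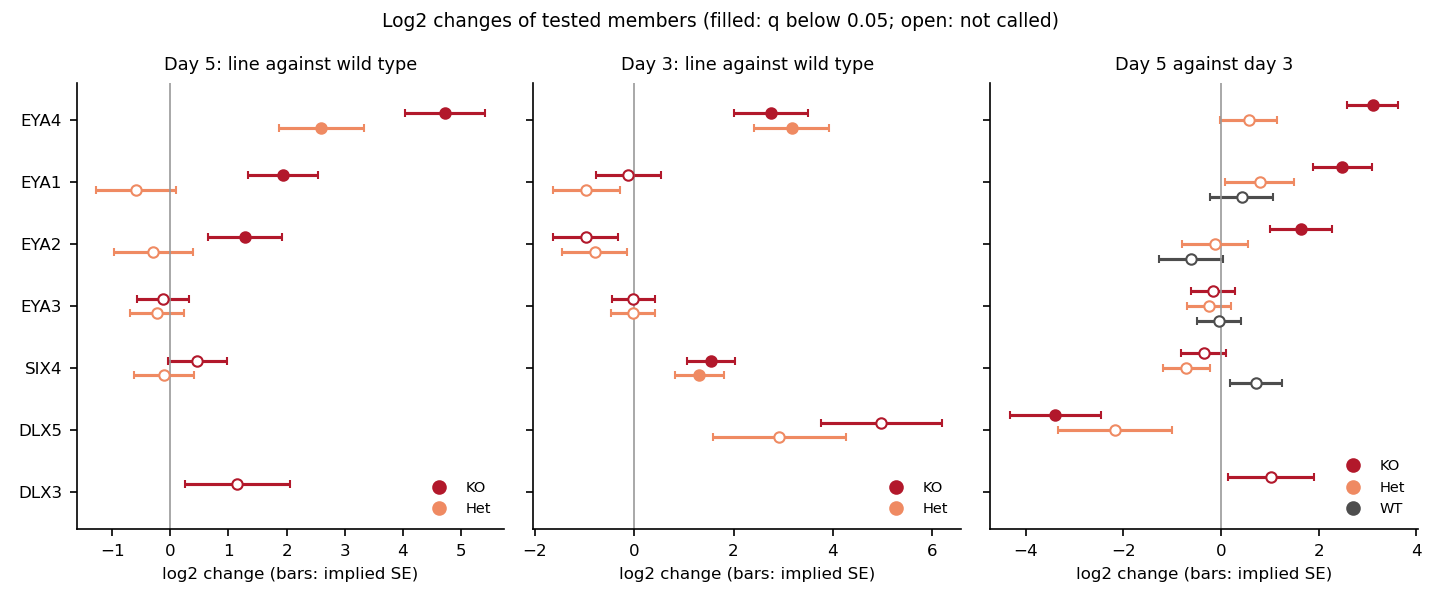
Log2 change of each tested member, with its implied SE, for KO and Het against wild type at day 5 (left) and day 3 (middle) and for day 5 against day 3 within KO, Het and wild type (WT, right); filled points have q below 0.05 in the authors' deposited table. At day 5 the filled KO points are EYA4 (4.73), EYA1 (1.94) and EYA2 (1.28), and at day 3 the filled points of both lines are EYA4 and SIX4.

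Between the days, 4 of the 7 members tested were called in KO, none of the 6 tested in Het and none of the 4 tested in wild type. EYA4 and DLX5 were among those not tested in wild type. There EYA4 went from 0.193 FPKM at day 3 to 0.425 at day 5, and DLX5 from 0.102 to 0.0417. In KO, 7 members were tested at day 5 against day 3, of which 3 rose and 1 fell, where 11.8% of all tested genes were called, 7.29% as rises and 4.53% as falls. EYA4 rose by 3.11 (SE 0.52, 8.62-fold) and EYA1 by 2.48 (SE 0.61, 5.59-fold), both with q = 0.00126 in the authors' deposited table. EYA2 rose by 1.64 (SE 0.63, q = 0.0201), and DLX5 fell by 3.40 (SE 0.93, q = 0.0111), by the authors' deposited table. DLX5 thus went the opposite way to EYA4, EYA1 and EYA2 in the KO line. DLX3 did not pass (log2 change 1.03, SE 0.88, q = 0.322), nor did SIX4 (-0.36, SE 0.46, q = 0.619) or EYA3 (-0.16, SE 0.44, q = 0.867), by the authors' deposited table.

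In wild type, 4 members were tested and none was called by Cuffdiff, where 21.6% of genes were (11.2% as rises and 10.4% as falls), and 1 member had an unadjusted p below 0.05 in the authors' deposited table. That member was SIX4, with a log2 change of 0.72 (SE 0.53, q = 0.0927 in the authors' deposited table). It was called, at an adjusted p of 0.0463, when calls were remade from the scaled scores. In Het, 6 were tested and none was called by Cuffdiff, where 7.57% of genes were (4.74% as rises and 2.83% as falls), and 2 had an unadjusted p below 0.05 in the authors' deposited table, DLX5 with a log2 change of -2.17 (SE 1.18, q = 0.132) and SIX4 with -0.71 (SE 0.48, q = 0.195). The remade calls gave none in Het.

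The time course of each edited line was set against that of wild type by subtracting the log2 changes, dividing by the SE the scores imply and adjusting the 2-sided normal p over all genes that had a value. EYA4 was not tested between the days in wild type, so the SE of its difference came from the comparisons of line with wild type on each day. In KO this difference was 2.26 for EYA2 (SE 0.91, adjusted p of 0.571), 2.06 for EYA1 (SE 0.89, adjusted p of 0.688) and 1.97 for EYA4 (SE 1.01, adjusted p of 1.00). It was -1.08 for SIX4 (SE 0.70) and -0.11 for EYA3 (SE 0.63), so that none of the 5 members with a value passed, where 0.361% of genes did. For the median gene, though not for each, p-values in the authors' deposited table lay below those a normal distribution gives for its scores. With the SE scaled to them (by 0.547 to 0.713, depending on the comparison), EYA2 (adjusted p of 0.00405), EYA1 (0.00783) and EYA4 (0.0419) passed, where 5.35% of genes did. Whether the EYA genes moved differently in KO and in wild type therefore depends on which SE is taken.

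In Het the same difference was -1.43 for SIX4 (SE 0.71, adjusted p of 1.00) and between -0.57 and 0.50 for the EYA genes. None of the 5 members passed with the implied SE, where 0.118% of genes did, nor with the scaled SE, where 1.17% did and SIX4 had an adjusted p of 0.0799. No value was formed for DLX5, whose day 5 comparisons with wild type were not tested.

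Among the relatives of these genes, the DACH corepressor genes went opposite ways against wild type in KO on both days and in Het at day 3. DACH1 was at 13.7 FPKM in KO, 10.9 in Het and 5.44 in wild type at day 5, and at 9.84 in KO, 8.60 in Het and 1.31 in wild type at day 3. It rose in both lines on both days: in KO by 1.33 at day 5 (SE 0.50, q = 0.00476) and by 2.90 at day 3 (SE 0.54, q = 0.00126), in Het by 1.00 at day 5 (SE 0.51, q = 0.0364) and by 2.71 at day 3 (SE 0.55, q = 0.00126), by the authors' deposited table. DACH2 was at 1.24 FPKM in KO, 4.28 in Het and 3.60 in wild type at day 5, and at 0.344 in KO, 1.84 in Het and 3.90 in wild type at day 3. By the authors' deposited table, in KO it fell by 1.54 at day 5 (SE 0.66, q = 0.0127) and fell by 3.50 at day 3 (SE 0.79, q = 0.00126), and in Het at day 3 it fell by 1.08 (SE 0.63, q = 0.0470). In Het at day 5 DACH2 was not called (log2 difference 0.25, SE 0.62, q = 0.820 in that deposited table).

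SIX5, the most abundant SIX-family gene in wild type, was at 7.38 FPKM in KO, 8.32 in Het and 14.0 in wild type at day 3. It fell in KO that day by 0.93 (SE 0.48, q = 0.0473 in the authors' deposited table), while SIX4 rose. The change in Het, -0.76 (SE 0.49, q = 0.0998), was not called. At day 5 SIX5 was at 5.84 FPKM in KO, 7.65 in Het and 6.18 in wild type. Neither line was called then (q = 0.946 in KO and 0.711 in Het, in the same deposited table). Of the 3 tested SIX-family and DACH relatives, KO at day 5 had 1 rise and 1 fall, KO at day 3 had 1 rise and 2 falls, 1 rose and none fell in Het at day 5, and 1 rose and 1 fell in Het at day 3.

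The other DLX genes were low except DLX1 in KO at day 5. DLX1, a gene of the forebrain and pharyngeal arches, was at 2.99 FPKM in KO, 0.0591 in Het and 0.0780 in wild type at day 5, and at or below 0.0878 FPKM in every group at day 3. It rose in KO between the days by 5.09 (SE 1.28, q = 0.0407 in the authors' deposited table), but the log2 difference from wild type at day 5, 5.26 (SE 1.36), had q = 0.578 in the same deposited table. DLX2, 9.8 kb from DLX1, was at 0.733 FPKM in KO, 0.0842 in Het and 0.0442 in wild type at day 5 and was not tested. DLX2 and DLX4 were tested in none of the 9 comparisons, and DLX1 was tested against wild type in KO at day 5 alone. The antisense DLX6-AS1, also on this list, was tested throughout, so that none of 2 tested was called in KO at day 5 and not the 1 tested in KO at day 3 or in Het on either day. DLX5 and DLX1 thus peaked on different days in the KO line.

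**Figure D4:**
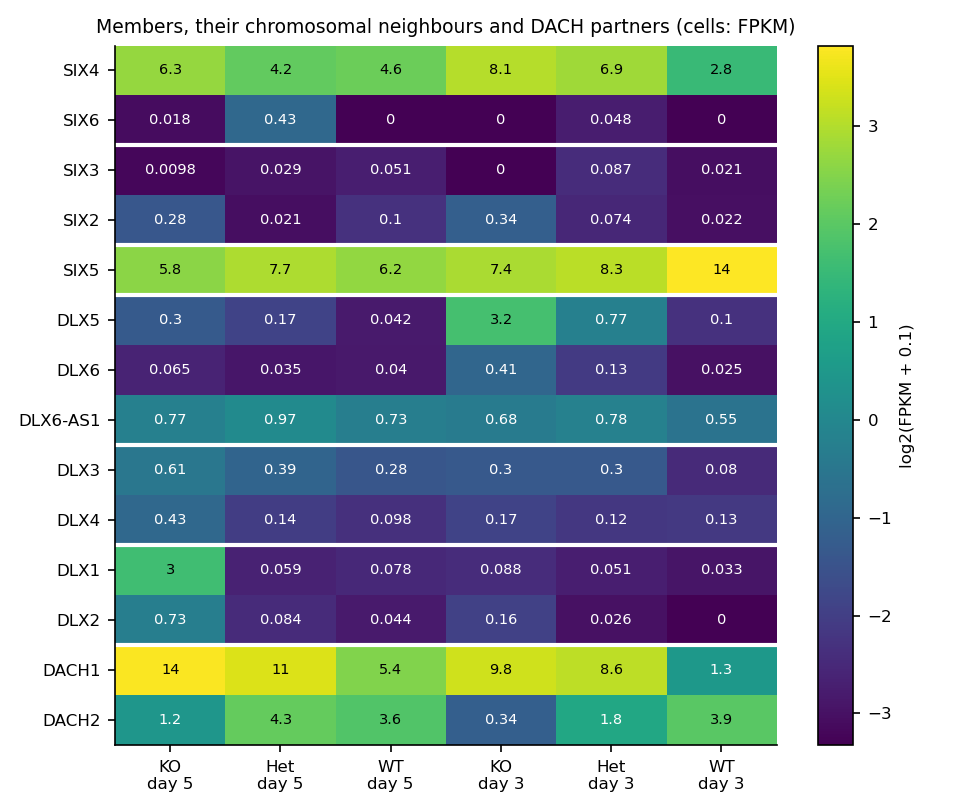
FPKM (printed in each cell) of the SIX-family and DLX members, their relatives and chromosomal neighbours, and the DACH genes in KO, Het and wild-type (WT) cells at day 5 and day 3; colour is log2(FPKM + 0.1) and white lines part the groups of neighbours. SIX4 stands above SIX6 in every group, DLX5 peaks at 3.20 FPKM in KO at day 3 and DLX1 at 2.99 FPKM in KO at day 5.

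The upstream genes that give ectoderm its competence to form placodes were described by the same q-values. Counts of this and the other gene lists stand beside the shares of all tested genes called against wild type. These were 13.3% in KO at day 5, 9.51% in KO at day 3, 2.16% in Het at day 5 and 6.31% in Het at day 3. Of this list of 12 genes, KO at day 5 had 7 rises and 1 fall among 9 tested, and KO at day 3 had 5 rises and 1 fall among 8. In Het, 5 of 7 rose and 1 fell at day 5, and 5 of 7 rose and 2 fell at day 3. TFAP2A, an AP-2 factor of the border and crest, was at 29.6 FPKM in KO, 12.7 in Het and 1.98 in wild type at day 5, and at 14.6 in KO, 3.85 in Het and 0.338 in wild type at day 3. In KO at day 5, TFAP2B rose by 3.89 (SE 0.52, q = 0.00126) and the forkhead gene FOXC1 by 4.33 (SE 1.03, q = 0.0105), by the authors' deposited table. The list's fall in KO at day 5 was the forkhead gene FOXI3, at 1.99 FPKM in KO and 6.05 in wild type, and IRX1, at 8.60 in KO and 13.9 in wild type, was not called. The fall in KO at day 3 was IRX1, at 30.2 FPKM in KO and 60.0 in wild type. The list's median change was 1.84 in KO at day 5, 1.49 in KO at day 3, 0.38 in Het at day 5 and 0.92 in Het at day 3.

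Of 16 genes of individual placodes, KO at day 5 had 6 rises and 1 fall among 10 tested, and KO at day 3 had 3 rises and 1 fall among 8. In Het, 3 of 6 rose at day 5, and 3 of 8 rose and 1 fell at day 3. TBX1, a gene of the ear vesicle and pharyngeal arches, was at 7.36 FPKM in KO and 0.425 in wild type at day 5. PAX2, of the otic placode and midbrain, was at 10.6 in KO and 1.27 in wild type at day 3. Lower in KO were SOX2, at 58.0 FPKM against 140 in wild type at day 5, and GBX2, at 6.07 against 12.3 at day 3. The summed level was 142 FPKM in KO, 155 in Het and 164 in wild type at day 5. At day 3 it was 195 in KO, 179 in Het and 184 in wild type. The list's median was 1.24 in KO at day 5, -0.11 in KO at day 3, 0.22 in Het at day 5 and 0.30 in Het at day 3.

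BMP signalling helps to place the neural plate border. Of the 11 BMP signal genes tested, KO at day 5 had 2 rises and 1 fall and KO at day 3 had 7 rises, while 1 rose in Het at day 5 and 5 rose in Het at day 3. The list's median was -0.20 in KO at day 5, 1.47 in KO at day 3, 0.33 in Het at day 5 and 0.82 in Het at day 3. BMP4 was at 24.1 FPKM in KO, 9.15 in Het and 2.40 in wild type at day 5, and at 9.55 in KO, 4.10 in Het and 0.153 in wild type at day 3. The fall in KO at day 5 was SMAD6, at 1.48 FPKM against 6.46 in wild type (q = 0.00227 in the authors' deposited table). The list's summed level was 282 FPKM in KO, 418 in Het and 364 in wild type at day 5. At day 3 this sum was 345 in KO, 408 in Het and 298 in wild type.

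Markers of other cell types moved with the members as well, and their part in the results was not tested. Of 12 neural crest specifiers, 11 were tested, of which 9 rose in KO at day 5, 4 in KO at day 3, 6 in Het at day 5 and 5 in Het at day 3, and none fell. Their summed level was 275 FPKM in KO, 119 in Het and 68.2 in wild type at day 5, and 113 in KO, 97.8 in Het and 45.4 in wild type at day 3, so that it was highest in the group where the EYA total was highest. Some genes, TFAP2A, TFAP2B and PAX3 among them, stand in more than 1 of these lists. The crest list's median was 2.68 in KO at day 5, 1.06 in KO at day 3, 1.17 in Het at day 5 and 0.84 in Het at day 3.

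Mesoderm and muscle markers, the cells in which SIX-family and EYA genes are also used, were low. None of the 14 reached 1 FPKM in KO at day 5, PAX1, MYF5 and MYOD1 were listed at 0 there, and the summed level was 3.83 FPKM in KO, 1.93 in Het and 1.89 in wild type at day 5. At day 3 the sum was 12.5 FPKM in KO, 2.29 in Het and 2.14 in wild type, most of it MIXL1 at 9.35 FPKM in KO, on the day and in the line where DLX5 was highest. Of 3 tested, none was called in KO at day 5 and 1, the streak gene T, rose in KO at day 3. MIXL1 was thus not called against wild type at day 3. The 1 gene tested in Het on each day was not called. The list's median was 0.65 in KO at day 5, 0.08 in KO at day 3, 0.02 in Het at day 5 and 0.02 in Het at day 3.

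Of 14 genes of epidermis and surface epithelium, 2 of 8 tested rose in KO on each day, none of 7 was called in Het at day 5, and 1 of 8 fell in Het at day 3. The defining epidermal genes KRT5, KRT14 and TP63 stayed at or below 0.0251 FPKM in all groups, and CDH1 was at 7.83 FPKM in KO, 0.442 in Het and 1.01 in wild type at day 3. The summed level, mostly CLDN6 and the simple keratins, was 167 FPKM in KO, 189 in Het and 176 in wild type at day 5, and 350 in KO, 192 in Het and 253 in wild type at day 3. The list's median was 0.03 in KO at day 5, 0.16 in KO at day 3, -0.04 in Het at day 5 and -0.39 in Het at day 3.

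Of 14 genes of the anterior neural plate and eye field, where SIX3 acts, KO at day 5 had 3 rises and 3 falls among 9 tested, and KO at day 3 had 2 rises and 2 falls among 7. In Het, 2 of 7 rose at day 5, and 1 of 7 rose and 1 fell at day 3. RAX, a defining eye-field gene, stayed at or below 0.0164 FPKM in all groups, and the summed level was 138 FPKM in KO, 209 in Het and 243 in wild type at day 5, and 248 in KO, 260 in Het and 355 in wild type at day 3. The list's median was 0.06 in KO at day 5, 0.01 in KO at day 3, 0.05 in Het at day 5 and 0.25 in Het at day 3.

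Of 10 broadly expressed control genes, KO at day 5 had 2 rises and 1 fall, 1 fell in KO at day 3, none was called in Het at day 5 and 2 fell in Het at day 3. In KO at day 5 the rises were B2M (log2 1.93) and HPRT1 (1.02) and the fall RPLP0 (-1.09), where 13.3% of all tested genes were called. Their median was -0.01 in KO at day 5, -0.10 in KO at day 3, -0.25 in Het at day 5 and -0.21 in Het at day 3.

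The genes whose levels over the 6 groups were most like those of a member were found among 6885 genes that reached 1 FPKM in some group and spanned 1 or more on the log2(FPKM + 0.1) scale. Each Pearson r below is a description over 6 group values that share libraries, and no p is given. EYA4 was most like ARHGAP19-SLIT1 (r = 0.980), FLJ42709 (0.977) and the protocadherin gene PCDH10 (0.976), which was at 14.3 FPKM in KO, 4.46 in Het and 0.462 in wild type at day 5. EYA1 was most like TRIM47 (0.991), the heart T-box gene TBX20 (0.990) and the growth factor receptor gene EGFR (0.990), which was at 145 FPKM in KO, 4.09 in Het and 8.54 in wild type at day 5. EYA2 was most like RIBC2 (0.985), B4GALNT1 (0.978) and ACSS1 (0.970).

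SIX4 was most like ANXA3 (0.981), the ligand gene BMP2 (0.957) and TNIK (0.956). BMP2 was at 23.2 FPKM in KO, 14.9 in Het and 1.53 in wild type at day 3. DLX5 was most like KLHL14 (0.991), ZIC5 (0.987) and the decoy receptor gene TNFRSF11B (0.984). For EYA3, whose own range was 0.27, the nearest genes were PFKFB3 (0.971), SNORA2B (0.962) and SCARNA14 (0.954), and so small a range gives these no weight. Among the members, r was 0.837 for EYA1 with EYA2, 0.802 for SIX4 with DLX5, 0.580 for SIX4 with EYA4, 0.570 for EYA1 with EYA4, 0.340 for EYA2 with EYA4 and -0.658 for EYA3 with EYA4.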

How the data were processed

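RNA from 16 samples was sequenced as poly-adenylated libraries, per the labels' protocols. Reads were aligned to hg19 with TopHat2 2.1.1 and quantified and tested with Cuffdiff 2.2.1, per the submitters' processing notes; read filters and the gene annotation's release were not stated. The table that the authors deposited holds, for 15 comparisons of 6 groups, FPKM per gene and group, a log2 fold change, a test score, and a p-value and q-value. It has no value per library, so counts, depth and spread between replicates were not at hand. The group named HOMO was read as the KO line, and the planned use of library values, had columns held them, fell away.

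The 9 members were matched by gene name, and 9 comparisons were used. Log2 changes were computed from group FPKM with no pseudocount, and medians with a pseudocount of 0.1. The median of a list took in all its genes, tested or not. The SE is the deposited log2 fold change over the deposited score; group SE were solved from the SE of all pairs. The normal test was tried on simulated single comparisons with noise set by the scaled SE, and the difference of time courses was not simulated. Members and the 10 gene lists were chosen with earlier results of these data known. Named were the members, FOXB1, other SIX-family and DLX genes, up to 3 called genes with the largest change per list and comparison, and the 3 genes most like each member; marker genes named as low or at 0 (KRT5, KRT14, TP63, RAX, PAX1, MYF5 and MYOD1), and FOXI3 and IRX1, were chosen after their values were seen. Some genes that this rule names are not reported here. Transcript GC content, used in an alternative, was matched for 87.5% of 15705 tested genes. Promoters are RefSeq's (GRCh38.p14) and were not mixed with the hg19 positions of the table. Python 3.11.15, pandas 2.3.3, numpy 2.4.6 and scipy 1.17.1 were used.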

Additional observations from a re-analysis of the deposited data

How the results depend on the processing

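No paired analysis was possible because the table holds no library values, and for the same reason leave-one-out fits were not run. Over the member results, 446 kept their direction and their side of the threshold under an alternative, 12 gained a call, 7 lost one and 5 reversed, not counting members that a minimum level removes. The 446 include 52 under each of the pseudocounts 0.1 and 1, and 37 under a minimum of 1 FPKM in both groups. These settings reuse the deposited q and could not change a result, so the total overstates how far the results were tried. The rises of EYA4, EYA1 and EYA2 in KO at day 5 held under each centring and adjustment, and those of EYA2 were lost at q below 0.01. Centred on chromosome, the rise of EYA2 against wild type held narrowly, at an adjusted p of 0.0497 by the normal test on scaled scores.

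With at least 1 FPKM required in both groups, the members called were 2 in KO against wild type at day 5 (3 without it, EYA4 being dropped), 3 between the days in KO (4 without it, DLX5 being dropped), 1 in KO against wild type at day 3 (2 without it), 1 in Het at day 3 (2 without it), 0 in Het at day 5 (1 without it) and 0 in KO against Het at day 3 (1 without it), since EYA4 in wild type and DLX5 in Het lie under that level. At q below 0.01 they were 0 in KO against Het at day 3 and 2 between the days in KO (4 at 0.05). KO against Het at day 3 also had 0 with p-values adjusted within the comparison, and 0 when centred on GC content. Remade calls without centring, added after seeing the data, gave 1 between the days in wild type (0 as deposited). The scaled SE gave 3 members whose time course in KO differed from wild type (0 with the implied SE). The cause was not tested for the last 4 of these. The 5 reversals were all EYA3 changes near 0 and never called: Het against wild type at day 3 was 0.010 when centred on all genes; KO against Het at day 3 was -0.0082 when centred on all genes, -0.032 on GC content and -0.20 on chromosome; and KO against Het at day 5 was -0.018 on GC content. Depth is unknown, so the limit it sets on SIX3, DLX3 and DLX6 cannot be given.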
